A study of Rattus norvegicus with 30 samples.

Results

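Olfactory bulb-rich and bulb-poor libraries were compared among rat forebrain RNA sequencing samples, with the members chosen by measured values. Of 30 samples, 3 with a normalized count above 100 for Gabra6, a gene of cerebellar granule cells, or Tph1, the serotonin-synthesis gene of the pineal gland, were dropped. The 27 samples kept were ranked by the mean log2(normalized count + 1) of Cdhr1 and Doc2g, and the 8 highest (bulb-rich) were set against the 8 lowest (bulb-poor), 16 samples in all, with genotype as a covariate. The other 11 samples are called the middle samples.

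The study sequenced brain RNA of male rats on a normal diet, 10 in each of 3 genotypes, to ask how brain genes respond to human amylin released by the pancreas. HIP rats express amyloid-forming human amylin in pancreatic beta cells, WT rats have only their own rat amylin, and AKO rats lack amylin. HIP and WT rats were 15 to 16 months old, and the age of the sequenced AKO rats was not given separately in the sources used here. The tissue is labelled frontal cortex, whereas the study's text calls it cerebral cortex in one place and hippocampal in another. The gene for amylin itself was not analysed here, so the genotype labels were not checked against it.

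The olfactory bulb lies at the front of the rodent forebrain, directly ahead of the frontal cortex. Axons of sensory neurons in the nose end in its glomeruli, where they contact mitral and tufted cells, the output neurons of the bulb. Periglomerular and granule cells, the local inhibitory neurons, are renewed in adults by neuroblasts that migrate from the wall of the lateral ventricle, and ensheathing glia wrap the incoming axons.

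Cdhr1, a cadherin-related gene of mitral and tufted cells, and Doc2g, a gene of the double C2 domain family found in the same cells, define the groups and are described without a test. Cdhr1 had normalized counts of 1512 at the lowest, 4261 at the median and 8224 at the highest in the bulb-rich samples, against 88.7, 115 and 362 in the bulb-poor samples. Doc2g ranged from 230 over a median of 486 to 1086 in the bulb-rich samples, and from 19.2 over a median of 65.0 to 102 in the bulb-poor samples. WT 8, WT 7 and AKO 3 were highest in both genes. The ranking had no break at either limit. AKO 8 with a score of 9.24 was the last bulb-rich sample and HIP 1 with 9.15 the next below it, while WT 4 with 6.74 was the last middle sample and WT 9 with 6.71 the next below it.

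**Figure D1:**
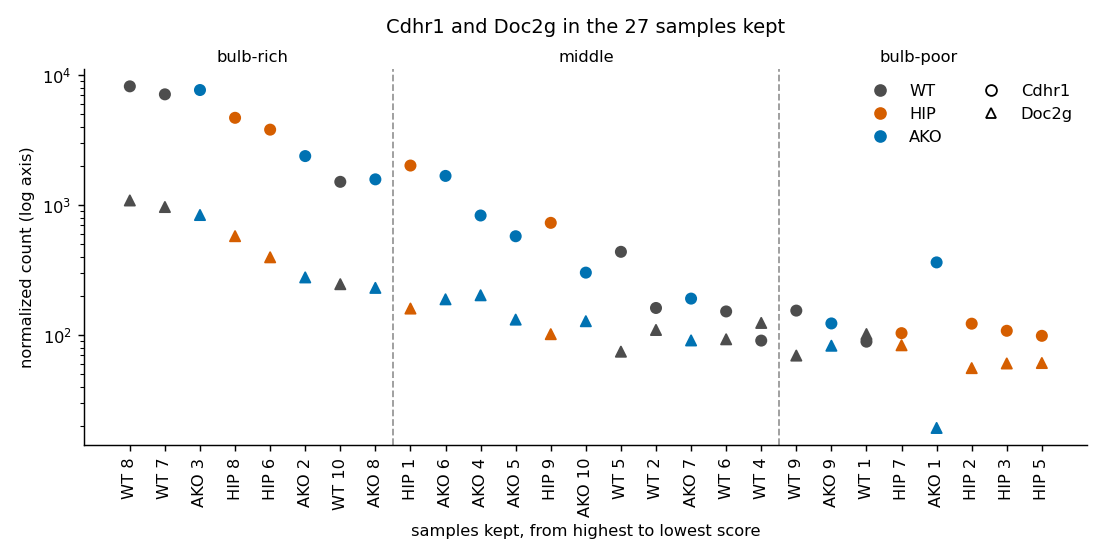
Normalized counts of Cdhr1 (circles) and Doc2g (triangles) on a log axis in the 27 samples kept, ordered by score and coloured by genotype. Dashed lines separate the 8 bulb-rich, 11 middle and 8 bulb-poor samples, and Cdhr1 falls from 8224 in WT 8 to at most 362 in the bulb-poor samples.

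Each genotype was found at both ends of the ranking. The bulb-rich samples were 3 WT, 2 HIP and 3 AKO rats, and the bulb-poor samples were 2 WT, 4 HIP and 2 AKO rats. Over the samples kept, the median score was 7.06 in 9 WT rats, 7.32 in 8 HIP rats and 8.40 in 10 AKO rats. The mean score of HIP rats was 0.21 below that of WT rats, beside an SD of 2.02 in WT and 1.85 in HIP. The score chose the groups, so its levels and these counts of rats are given without a test.

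Sequencing depth overlapped between the groups. Estimated reads in units of 1e6, the total divided by the value of 1 read, were 17.3 ± 2.76 (SD, n = 8) in the bulb-rich and 16.8 ± 2.87 (SD, n = 8) in the bulb-poor samples (exact permutation test, two-sided, p = 0.721, adjusted p = 0.721 over 3 measures). The total of the normalized counts, in units of 1e6, was lower in the bulb-rich samples, at 16.2 ± 0.40 (SD, n = 8) against 17.2 ± 0.34 (SD, n = 8), with an adjusted p of 0.00186 by the exact permutation test. The number after S in the sample titles averaged 150.5 ± 7.35 (SD, n = 8) in the bulb-rich and 141.9 ± 9.86 (SD, n = 8) in the bulb-poor samples (exact permutation test, adjusted p = 0.11). The part of the number after S in the results below was not tested, and the total was not fitted as a covariate. Estimated reads, as a covariate chosen after seeing the data, gave 1232 genes higher and 1192 lower. Quantile normalization, which gives all samples the same distribution of values, gave 1139 genes higher and 1013 lower.

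AKO 1 differed from the other bulb-poor samples in some genes. It had the highest Cdhr1 (362) and the lowest Doc2g (19.2) of the group, which these genes chose, and Aldh1l1, an astrocyte gene, was at 31.5 in it against 234 or more in each of the other bulb-poor samples. WT 9 and AKO 1 also had the highest values of striatal genes in the group, given below.

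The bulb-rich samples were set apart by genes of several bulb cell types, and the lower genes included Syt2, Kcns1, Scn4b and 7 of 15 neocortical markers. Of 17011 genes tested with limma, 1239 (7.28%) were higher and 1212 (7.12%) lower in the bulb-rich samples at an adjusted p under 0.05. These counts became 496 and 350 with all 30 samples ranked, 2272 and 2347 with sample-quality weights, and 2126 and 2398 with ranking by Cdhr1 alone. The groups did not overlap at all for 281 genes that were higher (1.65%) and 285 that were lower (1.68%). These p-values measure spread among rats that were ordered by measured values, so they say which genes varied with the ordering and not what a treatment did. In bulk tissue, fewer cells of a type and less RNA per cell cannot be told apart. The rises were larger than the falls: the median log2 difference was 0.75 over the higher genes and -0.39 over the lower genes, and 436 higher genes but 108 lower genes differed by at least 1 on the log2 scale. Without AKO 1 there were 1306 higher and 1357 lower genes.

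**Figure D2:**
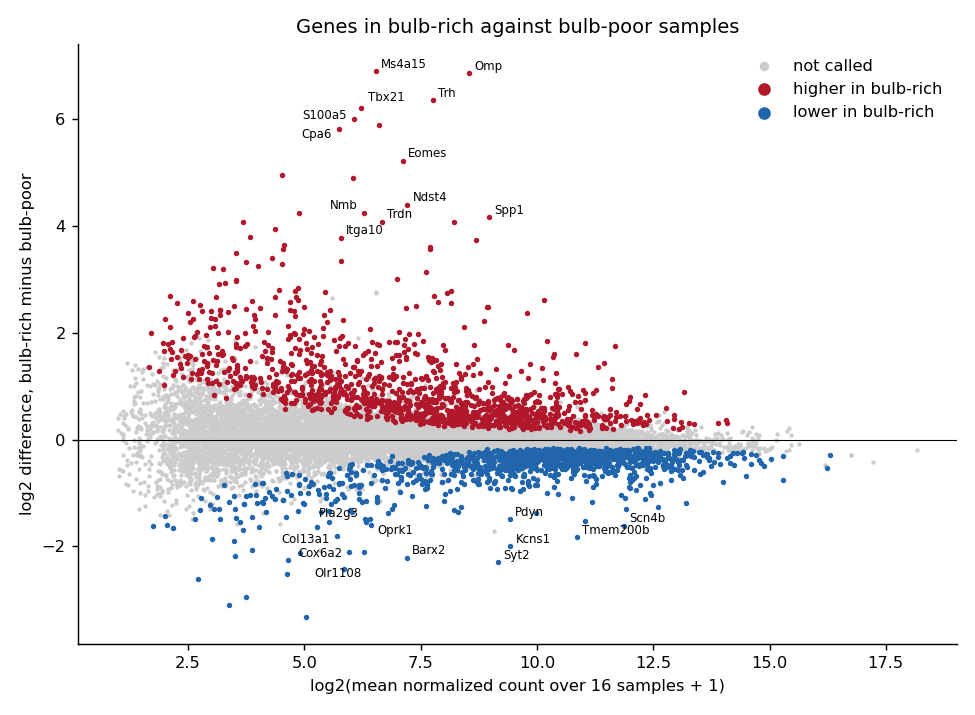
The log2 difference between bulb-rich and bulb-poor samples (vertical axis) of each tested gene against the log2 of its mean normalized count over the 16 samples plus 1 (horizontal axis). Red genes were higher and blue genes lower at an adjusted p under 0.05, and the labelled genes are from the 12 largest rises and 12 largest falls among genes with a symbol and a mean of at least 50, from Ms4a15 at 6.89 to Syt2 at -2.30.

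Genes of mitral and tufted cells had the largest median difference of the lists. Of 8 listed genes, 7 were higher, 0 were lower and 6 had groups that did not overlap, with a median log2 difference of 2.71 against -0.003 over all genes tested. Tbx21, a T-box transcription factor of these cells, had normalized counts of 44.5 at the lowest, 144.7 at the median and 265 at the highest in the bulb-rich samples, against 0, 0.41 and 2.47 in the bulb-poor samples. Every bulb-rich sample was above every bulb-poor sample. The fitted log2 difference was 6.21 (SE 0.44, adjusted p = 4.9e-07), which is on the log2(normalized count + 1) scale and is no bound, since no bulb-poor sample held more than about 2 estimated reads. Eomes, a related T-box factor, ranged from 52.5 over a median of 244 to 523 in the bulb-rich samples and from 1.64 over a median of 4.88 to 13.6 in the bulb-poor samples, a log2 difference of 5.22 (SE 0.48, adjusted p = 5.37e-06). Nmb, which encodes the peptide neuromedin B, differed by 4.24 (SE 0.47) and Shisa3 by 2.75 (SE 0.26) on the same scale. Lhx5, a LIM homeobox gene, was at 0 in all 8 bulb-poor samples and between 2.25 and 12.8 in the bulb-rich samples. Lhx1 was the member that did not pass, with medians of 1.81 and 0.91 (adjusted p = 0.186).

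Periglomerular genes followed, with 6 of 8 higher, 0 lower and a median log2 difference of 2.30. Th, the rate-limiting enzyme of dopamine synthesis, had normalized counts of 83.2, 373 and 723 at the lowest, the median and the highest of the bulb-rich samples, against 12.6, 27.4 and 38.7 in the bulb-poor samples. The groups did not overlap, and the log2 difference was 3.56 (SE 0.41, adjusted p = 2.77e-05). Trh, the precursor of thyrotropin-releasing hormone, had medians of 400 and 2.13 and differed by 6.35 (SE 0.66, adjusted p = 1.67e-05). The calcium-binding genes Scgn (secretagogin) and Calb2 (calretinin) differed by 3.61 (SE 0.33) and 2.48 (SE 0.26), and the transcription factor genes Sall3 and Pax6 by 2.11 (SE 0.29) and 1.70 (SE 0.20). Ddc, which completes dopamine synthesis, had medians of 109 and 76.2 (adjusted p = 0.167). Ddc was at 1.37 in AKO 1 against 57.96 or more in the other bulb-poor samples. Within genotypes it differed by 0.707 in WT, 0.0748 in HIP and 2.89 in AKO rats. Etv1 had medians of 1863 and 1458 (adjusted p = 0.0731).

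Granule cell genes were less uniform. Of 7 measured genes 5 were higher and 0 lower, with a median log2 difference of 0.89. Meis2, a homeobox gene, had normalized counts of 3009, 5231 and 8394 at the lowest, median and highest of the bulb-rich samples and 985, 1246 and 2774 in the bulb-poor samples, and Pbx3, which encodes a partner of Meis proteins, had medians of 1513 and 237. Both genes separated the groups without overlap, with log2 differences of 1.75 (SE 0.24) and 2.37 (SE 0.29). Tshz1, Prokr2 and Tpbg differed by 0.99 (SE 0.27), 0.89 (SE 0.28) and 0.62 (SE 0.12). Synpr had an adjusted p of 0.0551. Six3, which is also a gene of the striatum, ranged from 0 to 133.6 in the bulb-rich and from 2.09 to 216 in the bulb-poor samples (adjusted p = 0.188), with its highest values in WT 9, AKO 1 and AKO 2.

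Genes of migrating neuroblasts and young inhibitory neurons were higher in 7 of 11 cases and lower in 0, with a median log2 difference of 1.15. Dcx, which encodes the microtubule-binding protein doublecortin, had normalized counts of 490, 1169 and 2234 at the lowest, median and highest of the bulb-rich samples and 261, 327 and 391 in the bulb-poor samples. No sample of either group crossed into the other, and the log2 difference was 1.67 (SE 0.26, adjusted p = 0.000367). The homeobox genes Dlx1, Dlx2, Dlx5 and Dlx6 differed by 1.29, 1.77, 1.497 and 1.15, with adjusted p of 0.00641 or less. The division genes Mki67, with medians of 18.01 and 15.4, and Top2a, with medians of 8.34 and 3.15, did not pass (adjusted p of 0.733 and 0.118). Tubb2b was near 0 in most samples and belongs to a family of near-identical tubulin genes, so its value is uncertain.

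Some genes of the olfactory nerve layer were also higher. Of 5 genes listed for ensheathing cells 3 were higher and 1 lower, with a median log2 difference of 1.77, and of 9 measured sensory neuron genes 5 were higher and 0 lower, with a median of 0.80. Omp, the olfactory marker protein of mature sensory neurons, had normalized counts of 41.6, 565 and 2451 at the lowest, median and highest of the bulb-rich samples and 0, 1.87 and 6.40 in the bulb-poor samples, a log2 difference of 6.85 (SE 0.75, adjusted p = 2.15e-05). S100a5, a calcium-binding gene of the same neurons, ranged from 4.49 over a median of 108 to 356 in the bulb-rich samples and was at 0 in 7 of 8 bulb-poor samples. Of the ensheathing list, Frzb, a secreted Wnt-binding protein, differed by 2.22 (SE 0.24), Fabp7 by 1.77 (SE 0.21) and Prss56 by 3.65 (SE 0.46), while Mybpc1 fell by 0.87 (SE 0.24, adjusted p = 0.0201) and the neuropeptide gene Npy had medians of 768 and 849 (adjusted p = 0.724). Cnga2, a subunit of the olfactory transduction channel, was higher with a median of 11.1 against 0, while its partner Cnga4 had medians of 5.09 and 5.83 (adjusted p = 0.994). Also not called were Gng8, Adcy3 and Ano2, with log2 differences of 0.62, -0.16 and -0.28 (limma adjusted p of 0.0522, 0.138 and 0.66). Gnal was called higher, but was at 2057 in WT 9 and 1845 in AKO 1 against 1010 or less in the other bulb-poor samples.

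The bulb-rich samples differed among themselves in which bulb genes they held. AKO 2, the 6th in rank, had the highest Omp (2451), S100a5 (356) and Fabp7 (1797) of all bulb-rich samples. Its Prss56 was 14.8, against 79.0 or more in the 3 samples highest in rank. Its Tbx21 (44.5) was the lowest, close to 44.9 in AKO 8 and 46.7 in WT 10, whereas its Eomes was 158.7 against 58.4 and 52.5 in these samples, and its mean over the mitral and tufted list was 5.01 on the log2 scale, the 6th of 8. The granule cell gene Pbx3 was lowest in AKO 2 (610). WT 8, the highest in rank, had an Omp of 801 and a Tbx21 of 265. AKO 2 was also the highest of the bulb-rich samples in some measures outside the bulb genes. The hemoglobin gene Hba-a2 was at 40576 in AKO 2, against at most 9953 in the others. Its summed counts were 8965 for the meningeal, 4335 for the mural and 2314 for the endothelial list. Its thalamic list mean was 7.449 on the log2 scale, although its thalamic sum of 1735 was below the 2120 of AKO 3. The neocortical sum of AKO 2, at 12056, was the lowest of the bulb-rich samples.

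**Figure D3:**
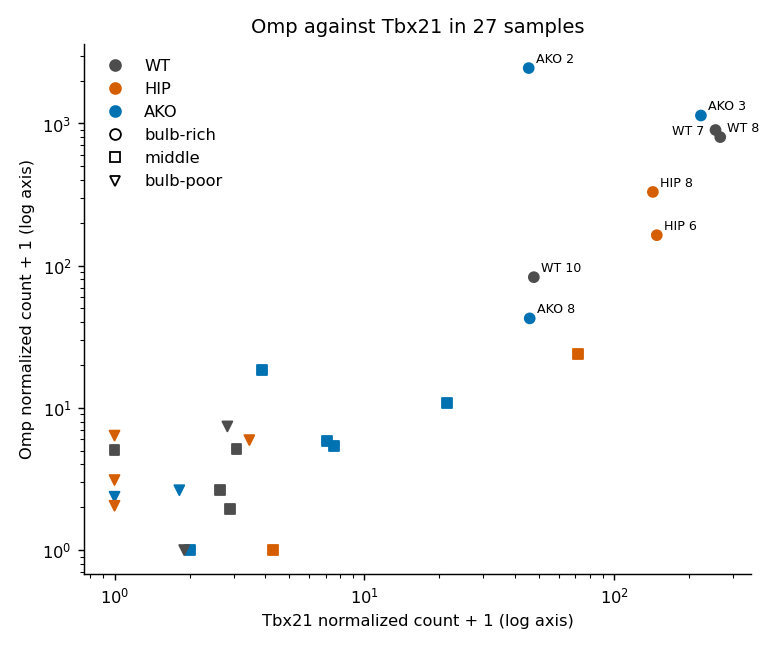
Omp against Tbx21, both as normalized counts plus 1 on log axes, in the 27 samples kept, with colours for genotype and shapes for bulb-rich, middle and bulb-poor samples. AKO 2 lies above the other bulb-rich samples with an Omp of 2451 beside a Tbx21 of 44.5.

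Beyond the lists, the largest rise was that of Ms4a15, a member of a family of membrane-spanning proteins. Its normalized counts were 38.8, 178 and 325 at the lowest, median and highest of the bulb-rich samples, whereas the bulb-poor samples ranged from 0 to 1.23 with a median of 0. The fitted log2 difference was 6.89 (SE 0.46, adjusted p = 2.1e-07), again no bound. Spp1, the secreted matrix protein osteopontin, rose from a median of 38.9 to 1104, a log2 difference of 4.16 (SE 0.45). Cpa6, Ndst4, Trdn and Itga10, which encode a carboxypeptidase, a heparan sulfate-modifying enzyme, the calcium-release protein triadin and an integrin subunit, differed by 5.82, 4.39, 4.08 and 3.77.

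Among genes that averaged 50 or more over the 27 samples kept, the highest Pearson correlations with the score over the same samples were those of Ms4a15 (r = 0.959), Shisa3 (r = 0.953), Calb2 (r = 0.948), a gene without a symbol (r = 0.944) and Hvcn1, a proton channel (r = 0.943). Tbx21 (r = 0.956) was under that limit, with a mean of 47.7. All 3 genotypes entered these correlations, as did the 16 samples compared, so they are no separate result.

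The largest falls were of other kinds of genes. Syt2, a calcium sensor for fast transmitter release, had normalized counts of 75.0, 176 and 307 at the lowest, median and highest of the bulb-rich samples, against 384, 1051 and 1320 in the bulb-poor samples. The groups did not overlap, with WT 9 and AKO 1 the lowest of the bulb-poor samples, and the log2 difference was -2.30 (SE 0.28, adjusted p = 5.67e-05). Tmem200b, a membrane protein gene, had medians of 795 and 2688 and the smallest adjusted p of the named genes (log2 difference -1.83, SE 0.10, adjusted p = 1.13e-08). Kcns1, a modulatory potassium channel subunit, and Scn4b, a sodium channel beta subunit, fell by 1.997 (SE 0.25) and 1.61 (SE 0.22). Barx2, a homeobox gene, Cox6a2, a subunit of cytochrome c oxidase, and Col13a1, a collagen, fell by 2.21, 2.10 and 1.81. Olr1108 fell by 2.10, but it belongs to the large olfactory receptor family, whose members share reads, and its value is uncertain. Pdyn, the precursor of dynorphin, and Oprk1, the receptor of dynorphin, fell by 1.495 (SE 0.27) and 1.60 (SE 0.41), and the adjusted p of Oprk1 rose from 0.0132 to 0.0505 without HIP 8. Pla2g3, a phospholipase gene, had medians of 27.98 and 58.3 (log2 difference -1.55, adjusted p = 0.0171, and 0.0538 without the genotype covariate), with a value of 576 in AKO 1 against at most 156.1 in the other bulb-poor samples.

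Several of these calls depended on which samples were ranked. With all 30 samples ranked, WT 3 and HIP 10 entered the lowest 8, and the log2 differences were -0.944 for Barx2 (adjusted p = 0.549), -0.886 for Olr1108 (0.628), -1.13 for Cox6a2 (0.289), -0.806 for Kcns1 (0.645), -0.62 for Oprk1 (0.717) and -0.243 for Pdyn (0.898). In that ranking 2 granule cell genes and 4 neuroblast genes were higher, and 1 neocortical gene was lower, by limma. Leaving out HIP 6 left 3 granule cell genes higher, and the fall of the ensheathing list's Mybpc1 was not called without HIP 6, AKO 9 or WT 1.

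Neocortical layer genes went in both directions. Of 15 measured genes 7 were lower and 3 higher, with a median log2 difference of -0.225. Lamp5, a membrane protein gene of cortical neurons, had normalized counts of 1926, 2761 and 4112 at the lowest, median and highest of the bulb-rich samples and 4188, 5660 and 5950 in the bulb-poor samples, a log2 difference of -0.91 (SE 0.12, adjusted p = 9.23e-05) with no overlap. Rorb, a gene of layer 4, fell by 1.16 (SE 0.26), and Emx1, Cux2, Tbr1 and Cux1 fell by 0.83, 0.55, 0.46 and 0.33. Ntsr1, a neurotensin receptor, was higher by 2.34 (SE 0.28), with medians of 64.2 and 11.3, and Syt6 and Bcl11b were higher by 0.99 and 0.83. Fezf2, with medians of 557 and 554, did not pass (adjusted p = 0.999). Of 7 genes of cortical excitatory neurons 3 were lower (Camk2a, Rtn4r and Nptx1) and 0 higher. Slc17a7, the vesicular glutamate transporter of cortical neurons, had medians of 25976 and 30095 (adjusted p = 0.377).

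Of 8 interneuron genes 1 was higher and 2 were lower. Gad1, the main enzyme of GABA synthesis, was higher by 0.58 (SE 0.19, adjusted p = 0.0472), while Vip and Lhx6 fell by 0.68 (SE 0.10) and 0.52 (SE 0.13).

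Striatal genes varied within both groups. Of 14 genes of striatal projection neurons 3 were lower, Ppp1r1b and Foxp1 among them, 1 was higher (the retinoid receptor gene Rxrg) and 10 did not pass, with a median log2 difference of -0.556. Ppp1r1b, a phosphatase inhibitor regulated by dopamine, had normalized counts of 1323, 1729 and 5200 at the lowest, median and highest of the bulb-rich samples and 2727, 3434 and 8738 in the bulb-poor samples, a log2 difference of -1.04 (SE 0.29, adjusted p = 0.023), and the groups overlapped. Drd2, the D2 dopamine receptor, was at 772 in WT 9 and 620 in AKO 1 against 215 or less in the other bulb-poor samples, and at 410 in AKO 2 and 314 in AKO 8 against 117 or less in the other bulb-rich samples. The summed normalized counts of the list ran from 6567 over a median of 7997 to 15590 in the bulb-rich samples and from 8514 over 9686 to 27210 in the bulb-poor samples, and the member with the highest mean was Penk in the bulb-rich and Ppp1r1b in the bulb-poor samples. With the mean of this list as a further covariate, 1270 genes were higher and 1380 lower. Without WT 9 and AKO 1, a choice made after these values were seen, 1345 genes were higher and 1488 lower.

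**Figure D4:**
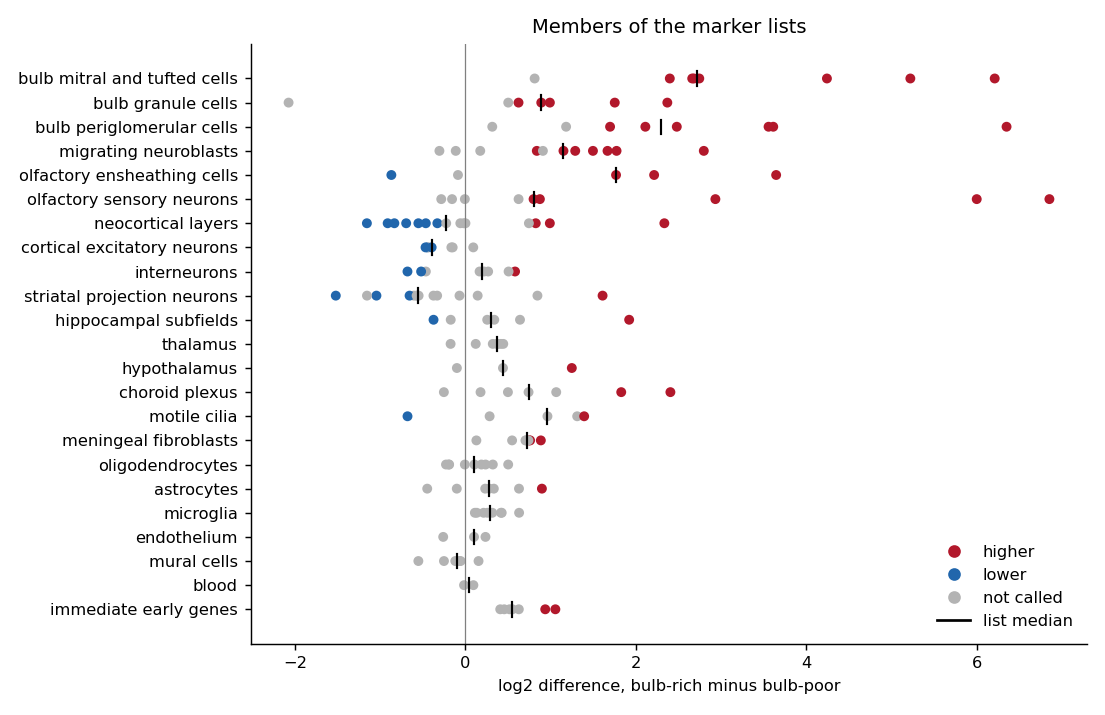
Log2 differences between bulb-rich and bulb-poor samples (horizontal axis) for the tested members of 23 marker lists (vertical axis; the cerebellar and pineal lists are not drawn), with red for higher, blue for lower and grey for not called, and a black bar at the list median. The mitral and tufted cell list has its median at 2.71 and the oligodendrocyte list at 0.106.

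The other lists marked further cells and regions. No gene of the lists for oligodendrocytes (9 tested), microglia (8), mural cells (6), thalamus (7), endothelium (3) or blood (2) passed in either direction with limma, and 5 of these 35 genes had an unadjusted p under 0.05, as did 4873 (28.6%) of all 17011 genes. Gfap, the intermediate filament of astrocytes, was the exception among 7 astrocyte genes. Its normalized counts were 8694, 12124 and 14702 at the lowest, median and highest of the bulb-rich samples against 3885, 6083 and 8545 in the bulb-poor samples, a log2 difference of 0.90 (SE 0.13, adjusted p = 0.000276). Of 8 meningeal fibroblast genes 3 were higher (Dcn, Col1a2 and Slc22a6), with a median log2 difference of 0.726, and the summed normalized counts of the list had medians of 4343 and 2972, with Igf2 the most abundant member. Of 7 choroid plexus genes 2 were higher (Folr1 and Clic6, at most 12.9 and 19.7 in the bulb-rich samples), with a median log2 difference of 0.741, Kcnj13, the most abundant in both groups, had medians of 43.7 and 28.7, and Ttr was at most 35.4 in the bulb-rich and 19.6 in the bulb-poor samples. Of 7 immediate early genes, with a median log2 difference of 0.552, 2 were higher, Fosb by 1.06 (SE 0.18, adjusted p = 0.000743) and Npas4 by 0.94 (SE 0.29, adjusted p = 0.036). The part of these cells in the other differences was not tested.

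The remaining lists held few tested genes. C1ql2 was higher by 1.92 (SE 0.32) and Dkk3 lower by 0.37 (SE 0.12) among 6 hippocampal genes. Dnah12 was higher and Spag6 lower among 5 genes of motile cilia, with a median log2 difference of 0.963. That median is the value of Rsph1, which was at 1.37 in AKO 1 against 35.7 or more in the other bulb-poor samples. Within genotypes Rsph1 differed by 0.451 in WT, 0.297 in HIP and 2.21 in AKO rats. Avp was higher among 3 hypothalamic genes, with medians of 8.91 and 2.90. Ca8, a gene of Purkinje cells, fell by 0.77 (SE 0.14, adjusted p = 0.00114), and the pineal genes Aanat and Asmt had adjusted p of 0.765 and 0.356. Gabra6 (medians of 4.11 and 11.3) and Tph1 (medians of 3.80 and 1.14) were used to drop samples and are given without a test, although each is in the counts over all genes.

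The 11 middle samples, 4 WT, 2 HIP and 5 AKO rats, did not enter the comparison, but they were placed by the same score. Within them the slope on the score was positive for 48.5% of all genes tested, for 70.2% of the genes called higher and for 37.5% of the genes called lower. All 12 of the largest rises had a positive slope, with a median of 1.55 per unit of score, and 9 of the 12 largest falls had a negative slope. Barx2, Col13a1 and Oprk1 were the falls with a positive slope. With limma, 0 genes had a slope with an adjusted p under 0.05 in these samples, and 702 had an unadjusted p under 0.05. The mitral and tufted list mean ran from 1.40 to 4.57 on the log2 scale in the middle samples, against 4.38 to 6.31 in the bulb-rich and 1.80 to 2.48 in the bulb-poor samples.

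**Figure D5:**
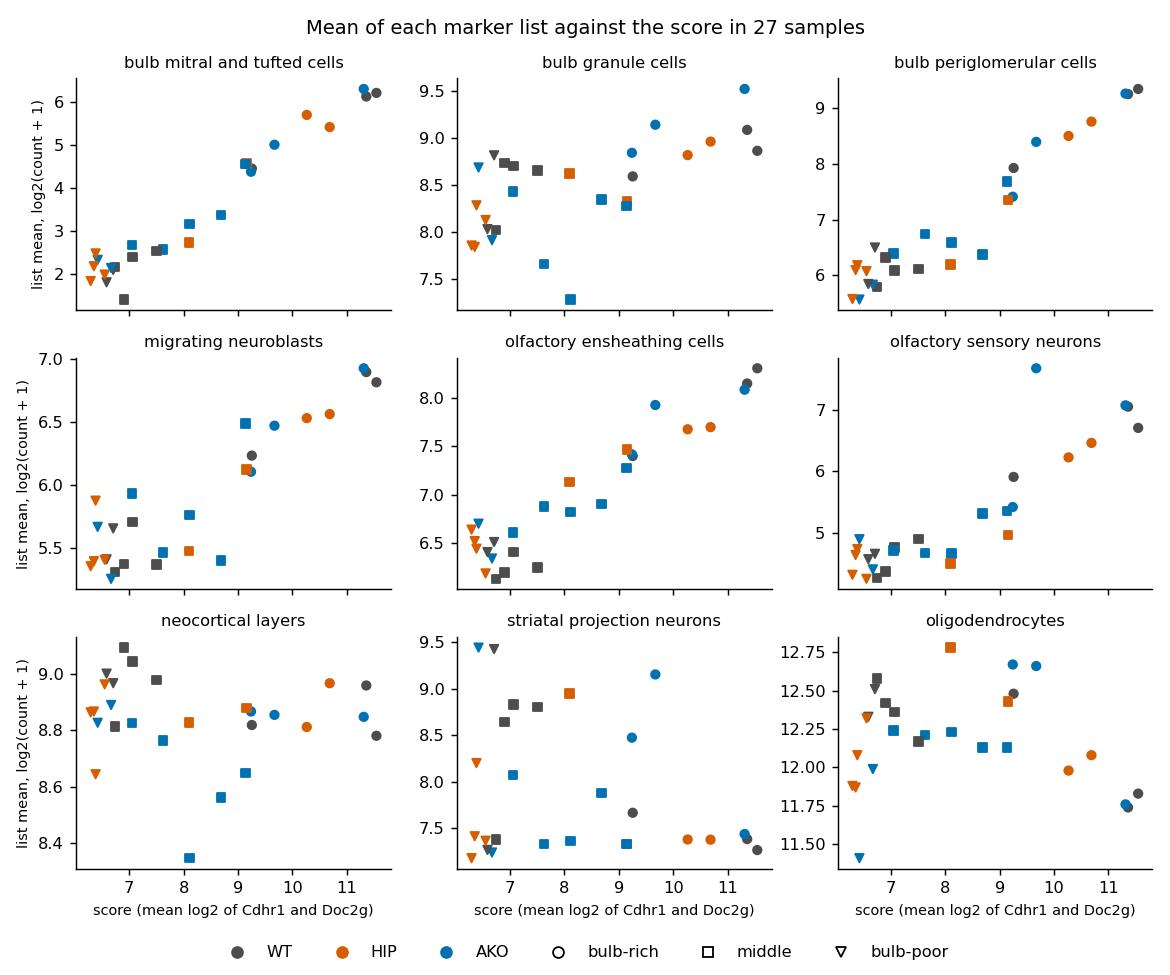
The mean log2(normalized count + 1) of 9 marker lists (vertical axes) against the score (horizontal axes) in the 27 samples kept, with colours for genotype and shapes for bulb-rich, middle and bulb-poor samples. The mitral and tufted list climbs from at most 2.48 in the bulb-poor samples to 6.31, while the striatal list reaches 9.44 in AKO 1 and 9.15 in AKO 2 at opposite ends.

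The difference was also computed within each genotype. Tbx21 differed by 6.00 in WT, 6.74 in HIP and 5.85 in AKO rats, and Th by 3.61, 3.38 and 3.70, as differences of the mean log2 values. Oprk1 was less even, with differences of -2.17, -2.36 and -0.17, as was Pla2g3, with -0.123, -1.29 and -3.27. In a limma test of whether the difference depended on genotype, added after the other results were seen, 0 of 17011 genes had an adjusted p under 0.05 and 734 had an unadjusted p under 0.05. With 2 to 4 rats of a genotype in each group, this test could miss such a dependence.

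The study's own contrast was computed with and without the score among the 9 WT and 8 HIP rats kept. The score term passed an adjusted p under 0.05 for 3833 of 16976 genes (22.6%), with 1868 positive and 1965 negative slopes. The same score ranked the samples, and these rats included 3 WT and 2 HIP bulb-rich and 2 WT and 4 HIP bulb-poor samples. The count for the score term is therefore no separate result. For HIP against WT, limma gave 0 genes at an adjusted p under 0.05 and 642 (3.78%) at an unadjusted p under 0.05. With the score as a covariate these were 0 and 945 (5.57%), and 632 genes were below the unadjusted limit in both fits. At that unadjusted limit, 849 genes would be expected if no gene differed.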

How the data were processed

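RNA of each rat was prepared with an RNeasy kit and a SMARTER mRNA-Seq library kit. In Partek Flow, the authors mapped the reads to the rn7 build, quantified genes by the Ensembl105 annotation and normalized the result with DESeq2. The submitters' processing notes also name Partek 10.0.22.0228, Bowtie2 and STAR 2.7.8a. The deposited values are a signal scaled per sample, here called normalized counts. Between 81.5% and 84.6% of values below 100 in a kept sample were whole multiples of 1 step (tolerance 0.001 of the value, or 0.001 below 1), so whole reads were not recovered and no count test was run. The step was taken as the value of 1 read, giving 12.9 to 23.6 estimated reads per kept sample, in units of 1e6.

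Genes averaging 1 or more over the 16 samples were tested on log2(normalized count + 1) with limma 3.58.1 in R 4.3.3 (empirical Bayes with a trend, two-sided, Benjamini-Hochberg over all genes tested), with genotype as a covariate. Differences on this scale understate changes of low genes. Permutation tests used Python 3.11.15. A planned permutation test of the score between genotypes is not used here, since the score chose the groups. For the same reason a Fisher's exact test of genotype by group is not used. The fit was tested on simulated data. Of 205 listed markers, 183 were matched to the table, and the others were not analysed here. A few genes that these rules name are not reported here. Genes named beyond the lists were the 12 largest rises and 12 largest falls with a symbol, a mean of at least 50 and an adjusted p under 0.05, and, at a mean of 50 or more over the samples kept, the 5 genes most correlated with the score. The members and lists were chosen with earlier results of these data known. Replicate numbers follow the order of the samples and pair no rats. Alternatives covered the pseudocount, the low-value filter, covariates, weights, scaling, the ranking and single samples left out.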

Additional observations from a re-analysis of the deposited data

Results flagged for a closer look

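Of 110 sets of 8 values examined for a sample far from the others, with Cdhr1 and Doc2g set aside, 6 held one, and chance alone marks about 1 in 20 such sets. AKO 1 was that sample for 4 measures among the bulb-poor samples. Its normalized counts were 133.03 for Barx2 (216 to 307), 50.7 for Cox6a2 (94.7 to 125) and 8098 for Scn4b (4485 to 5903), and its mean log2 value of the endothelium list was 7.61 (8.71 to 9.26). WT 9 had a Pdyn of 1593 (790 to 1046), and HIP 2 was the only bulb-poor sample with S100a5 above 0, at 1.23. AKO 1 was also far from the others in Cdhr1, at 362 (88.7 to 153.97), and Doc2g, at 19.2 (55.5 to 102), but these genes chose the group, so both are given as a description only. The causes were not tested.

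Signal also appeared in the 3 samples left out of the ranking. WT 3 had a Gabra6 of 17979 and HIP 10 a Gabra6 of 1564, against at most 16.5 in the bulb-poor samples, and HIP 4 had a Tph1 of 19081, against at most 13.2 in the bulb-rich samples.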

How the results depend on the processing

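The 2451 genes called (1239 higher, 1212 lower) became 4619 (2272 and 2347) with sample-quality weights, 4524 (2126 and 2398) with ranking by Cdhr1 alone and 846 (496 and 350) with all 30 samples ranked, and the cause was not tested. Of the 1239 higher genes, 1231, 1112 and 454 were shared with these fits, and of the 1212 lower genes 1207, 1133 and 322. With each of the 16 samples left out in turn, the total ran from 1794 to 2843, the higher genes from 905 to 1425 and the lower genes from 881 to 1418. The other alternatives, among them quantile normalization with 1139 higher and 1013 lower genes, stayed within 1.5 times of these counts. For the 24 named genes, 768 values were computed over 16 alternatives and 16 samples left out, of which 758 kept direction and an adjusted p under 0.05, 10 kept direction only and 0 reversed. Of those 10, 7 came from ranking all 30 samples (Barx2, Olr1108, Cox6a2, Kcns1, Oprk1 and Pdyn among them), and the adjusted p was 0.0538 for Pla2g3 without the genotype covariate, 0.0505 for Oprk1 without HIP 8 and 0.0532 for Oprk1 without WT 9 and AKO 1. The unadjusted count for HIP against WT was 642, and 638 with a pseudocount of 5 and 563 with a mean of at least 10. No paired analysis was run. Some sample titles share a prefix across the groups, as in AKO 1 and AKO 2, and no block on it was fitted. Values of a few reads, as for Tbx21 and Ms4a15 in the bulb-poor samples, limit how large a rise can be measured.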

Other observations

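Several abundant neuronal genes, chosen after their values were seen, were lower in the bulb-rich samples with no overlap between the groups. Vamp1, a synaptic vesicle protein, fell by 1.27 (SE 0.12), the sodium channel gene Scn1a by 1.30 (SE 0.14), the potassium channel gene Kcna1 by 1.04 (SE 0.12), and the neurofilament genes Nefh and Nefm by 1.10 (SE 0.16) and 0.99 (SE 0.13), with limma adjusted p of 0.000252 or less.

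Genes linked to amyloid and tau were also chosen after their values were seen. App, the amyloid precursor gene, had normalized counts of 20970, 23396 and 29274 at the lowest, median and highest of the bulb-rich samples and 29330, 31550 and 33698 in the bulb-poor samples (log2 difference -0.39, SE 0.08, limma adjusted p = 0.00211), with a correlation of -0.897 with the score over 27 samples. Mapt fell by 0.23 (SE 0.06, adjusted p = 0.0162). Lrp1 had medians of 5300.5 and 6224 (adjusted p = 0.139), and Apoe had medians of 48782 and 40195 (adjusted p = 0.105).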
